A study of Mus musculus with 6 samples.

Results

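The genes described here are 10 transcription factors and regulators of the immediate early class, which cells switch on within minutes of a stimulus without needing new protein. They are the nuclear receptor genes Nr4a1, Nr4a2 and Nr4a3, the FOS genes Fos and Fosb, the JUN genes Jun, Junb and Jund, the zinc finger gene Egr1 and the nuclear protein gene Ier2. They were found by symbol in the deposited expression table, where all 10 are listed among 22481 symbols, and all 10 passed the filter on low values that kept 11659 genes for testing. The samples are quadriceps muscles of mice, frozen and powdered, with 3 RNA-seq libraries from Fbxw7 flox/flox mice that also carry MCK-Cre (MCK-Cre+/-), called knockout, and 3 from Fbxw7 flox/flox mice without Cre, called control. Both groups are homozygous for the floxed Fbxw7 allele, so effects of carrying Cre cannot be told apart from those of losing Fbxw7. The muscle creatine kinase promoter drives Cre in muscle fibres, and the other cells of the tissue keep the gene. Age, sex, feeding and hour of sampling are not in the labels used here. One may ask of these genes how their transcripts stand in muscle where deletion of Fbxw7 is targeted. Fbxw7 encodes the F-box protein that picks the targets of a ubiquitin ligase, and the JUN protein is one of those targets. These are transcript levels, and protein was not measured.

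As background, FOS and JUN proteins pair through leucine zippers to form the transcription factor AP-1, in which JUN proteins can also pair with each other while FOS proteins need a JUN partner. The 3 NR4A receptors have no known hormone and are regulated mainly by how much of them is made. In skeletal muscle they respond to exercise and to beta-adrenergic stimulation and are linked to the use of glucose and fat. EGR1 is induced through serum response factor and the ERK kinases, and IER2 is a nuclear protein induced together with FOS.

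Of the 10 genes, 5 differed between the groups at an adjusted p under 0.05, called here. Nr4a1 was lower in knockout muscle, and Nr4a3, Junb, Jund and Egr1 were higher. For Nr4a2, Fos, Fosb, Jun and Ier2 no difference was called. Across all tested genes 34.6% were called, 24.5% as higher and 10.1% as lower in the knockout, so the 5 of 10 stand against a background in which change was common. The same 5 genes had groups that do not overlap, against 49.8% of all tested genes (35.7% with the knockout higher and 14% with it lower). The median log2 change of the 10 was 0.38, beside 0.21 for all tested genes, so changes are also given after taking off that general shift of 0.21. Levels below are FPKM, which the authors scaled to gene length and depth, with 3 libraries a group.

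**Figure D1:**
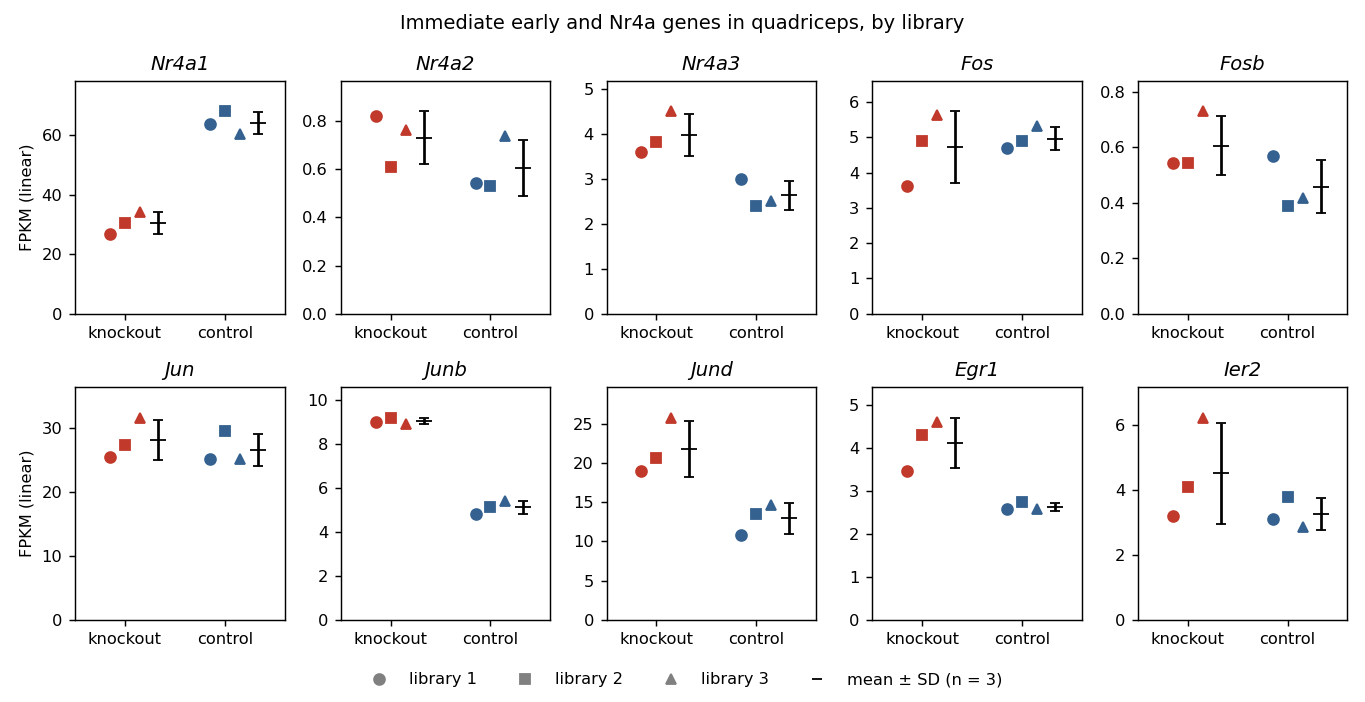
FPKM of each gene in every library, on a linear axis that starts at 0, with knockout libraries left of control libraries and the mean ± SD (n = 3) beside each group. Nr4a1 lies lower in all 3 knockout libraries, Nr4a3, Junb, Jund and Egr1 lie higher in all 3, and the groups overlap for the other 5 genes.

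Deletion was first checked in the targeted gene. Fbxw7 had 4.02, 3.86 and 3.81 FPKM in the knockout libraries, against 6.51, 6.23 and 6.36 in the controls. The 3 knockout values lie below all control values (log2 change -0.69, limma adjusted p = 0.0028). These are values of the whole gene and not of the deleted part. Cells outside muscle fibres keep the gene, and its deposited locus also spans Gm37240 on the opposite strand. Estimated depth was lower in the knockout libraries, at 3150475 to 6704419 fragments, against 8435939 to 11783897 in the controls. Muscle fibre markers were abundant in every library and went both ways, with 4 of 10 higher and 6 lower in the knockouts. The most abundant of them, Tnnt3 and Acta1, were among those that fell (log2 -1.36 for Tnnt3 and -0.85 for Acta1). Markers of several other cell types were higher in the knockouts. Among them were 6 of 7 tested adipocyte markers and 5 of 5 tested satellite cell markers, of which Des is also a fibre marker. All 6 tested B cell and 5 tested T cell markers also rose. Of 8 tested endothelial markers 0 were called, and of 8 smooth muscle and pericyte markers 0 rose and 2 fell. Of 8 macrophage markers 2 rose, and of 8 fibro-adipogenic markers 4 rose and 1 fell. Over all tested genes 24.5% were called higher and 10.1% lower. The satellite cell markers Pax7, Myf5 and Calcr, under the filter and named with their values in view, were lower in knockouts. Their means were 0.184, 0.238 and 0.0109 FPKM in knockouts, against 0.303, 0.570 and 0.104 FPKM in controls. Summed adipocyte markers read 449 to 516 FPKM in knockouts and 402 to 416 FPKM in controls. Summed B cell markers (8 genes) read 20.04 to 21.99 FPKM in knockouts and 0.0855 to 0.231 in controls, where Cd79a, Ms4a1, Pax5, Iglc2 and Blk were listed at 0 in all 3 libraries. Summed T cell markers (7 genes) read 11.1 to 17.4 FPKM in knockouts and 0.386 to 0.953 in controls. In bulk tissue fewer cells of a type and less RNA per cell cannot be told apart.

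Upstream sequence is shown for 4 of these genes because Nr4a1 and Nr4a3 moved in opposite directions while Junb rose and Fos was not called. The letters are the 250 bases before the RefSeq start site (table build GRCm38.p6), 5′ to 3′ on the strand of the gene, and capitals mark the core of the cyclic AMP response element, TGACG, read on either strand. The windows are chr15:101266596-101266845 for Nr4a1 (plus strand), chr4:48045055-48045304 for Nr4a3 (plus strand), chr12:85473640-85473889 for Fos (plus strand) and chr8:84978749-84978998 for Junb (minus strand).
Nr4a1: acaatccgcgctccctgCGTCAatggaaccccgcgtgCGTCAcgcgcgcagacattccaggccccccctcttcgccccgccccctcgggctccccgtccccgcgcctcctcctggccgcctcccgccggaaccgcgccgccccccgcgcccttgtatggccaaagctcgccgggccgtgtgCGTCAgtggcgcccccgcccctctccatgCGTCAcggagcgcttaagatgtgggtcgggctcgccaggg
Nr4a3: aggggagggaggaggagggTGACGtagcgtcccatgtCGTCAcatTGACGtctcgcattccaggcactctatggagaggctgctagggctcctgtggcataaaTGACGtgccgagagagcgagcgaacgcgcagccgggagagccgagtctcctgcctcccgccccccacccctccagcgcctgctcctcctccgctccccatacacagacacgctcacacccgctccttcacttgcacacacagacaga
Fos: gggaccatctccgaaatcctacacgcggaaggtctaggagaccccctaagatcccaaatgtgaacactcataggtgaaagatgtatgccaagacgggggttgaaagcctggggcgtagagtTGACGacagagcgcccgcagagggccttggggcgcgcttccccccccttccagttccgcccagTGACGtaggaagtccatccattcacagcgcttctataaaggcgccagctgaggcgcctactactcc
Junb: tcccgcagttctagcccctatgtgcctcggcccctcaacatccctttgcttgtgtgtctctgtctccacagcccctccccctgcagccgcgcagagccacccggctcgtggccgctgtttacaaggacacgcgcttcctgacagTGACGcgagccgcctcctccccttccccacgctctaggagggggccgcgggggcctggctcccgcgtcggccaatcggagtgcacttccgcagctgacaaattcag

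Promoter entries, matched by symbol, were searched for 8 of the 10 genes. Chromosome 18, on which Egr1 lies, was left out of the search of these genes, and no entry was matched for Ier2. The core TGACG was present on either strand in 6 of these 8, in the 3 Nr4a genes, Fos, Fosb and Junb, and in 17.9% of 27025 promoters in the table over the same length. Nr4a1 and Nr4a3 each held 4 of them, and a link between that count and the changes was not tested. Jund and Jun held none. The window of Jund, chr8:70697489-70697738, ends before the GENCODE start of that gene at 70698949, so it does not cover the bases next to that start. The full element TGACGTCA, which contains the core, was in none of the 8 and in 1.62% of all promoters. Other searches found the CArG box bound by serum response factor in none of the 8 (1.399% of all), the NR4A element AAAGGTCA in none (1.31% of all), the AP-1 sites TGACTCA and TGAGTCA in none (4.43% of all), and the EGR sites GCGTGGGCG and GCGGGGGCG in 2, Nr4a1 and Fosb (3.05% of all). All were read on both strands, GC boxes (GGGCGG) overlap the EGR sites, and each match describes letters only. Sites outside the 250 bases were not searched, and Egr1 and Ier2 were not among the genes searched, so absence here is absence from these windows only.

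**Figure D2:**
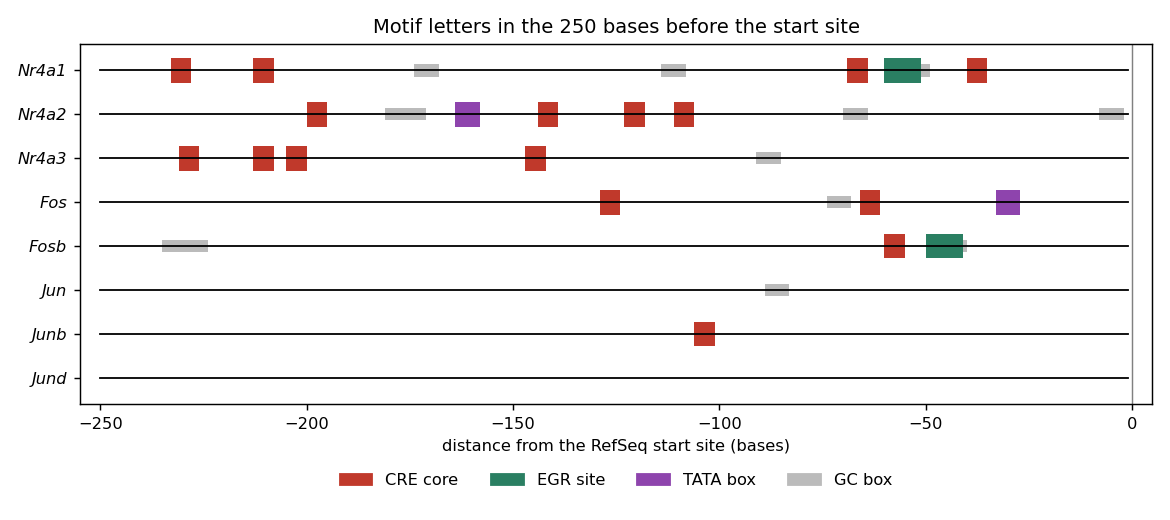
Positions of motif letters in the 250 bases before the start site of the 8 genes searched, as distance from the start site in bases. Red boxes mark the core TGACG, green boxes EGR sites, purple boxes the TATA box letters TATAAA and grey boxes GC boxes. Nr4a1 and Nr4a3 hold 4 cores each, and Jun and Jund hold none, the Jund window ending before the GENCODE start of Jund.

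Nr4a1, which encodes the receptor NUR77, showed the largest change of the 10 genes and fell to less than the level of any control library. It had 26.6, 30.5 and 34.3 FPKM in the knockout libraries, against 63.9, 68.0 and 60.3 FPKM in the controls. The knockout values all lie well below the control values. Means were 30.5 ± 3.83 and 64.1 ± 3.84 (SD, n = 3 each), so the level in controls was 2.10 times that in knockouts, and the log2 change was -1.07 (SE 0.10, limma adjusted p = 0.000145), or -1.28 after the general shift is taken off. The call held under each of 17 alternative settings, with log2 changes between -1.30 and -0.98. Nr4a1 lies on chromosome 15 (101254269 to 101274795, plus strand, ENSMUSG00000023034), and the deposited row covers the part from 101266846, with about 253 to 723 estimated fragments in a knockout library and 1582 to 2476 in a control library.

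Nr4a3, which encodes NOR1, moved the other way. Knockout libraries had 3.61, 3.83 and 4.51 FPKM, against 3.001, 2.39 and 2.51 FPKM in the controls. All 3 knockout libraries are higher, by a narrow margin over control 1. Its log2 change was 0.58 (SE 0.16, adjusted p = 0.0257), or 0.37 after the general shift is taken off. The call of Nr4a3 ended under size factor scaling by median of ratios (adjusted p = 0.108), under quantile normalization (0.213), and without knockout 2 (0.0589), knockout 3 (0.0877), control 2 (0.0891) or control 3 (0.0635). Nr4a2, which encodes NURR1 and is known best from dopamine neurons, was scarce. It had 0.822, 0.612 and 0.765 FPKM in knockouts and 0.544, 0.532 and 0.738 FPKM in controls, with 11 to 27 estimated fragments a library. Those groups overlap, and the log2 change of Nr4a2 was 0.24 with a 95% interval of -0.40 to 0.89 (adjusted p = 0.529).

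Added together, the 3 receptors came to 31.1, 34.98 and 39.6 FPKM in the knockout libraries, against 67.4, 70.9 and 63.6 FPKM in the controls. Nr4a1 held most of that sum in every library, at 85.7% to 87.3% in knockouts and 94.7% to 95.9% in controls. Nr4a3 made up 10.9% to 11.6% in knockouts and 3.38% to 4.45% in controls. Nr4a3 thus held a larger share in knockouts, of a smaller sum, while Nr4a1 stayed the main member. Mean levels of Nr4a1 were 30.5 FPKM in knockouts and 64.1 in controls, and those of Nr4a3 were 3.98 and 2.64. These shares are a description with no test.

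**Figure D3:**
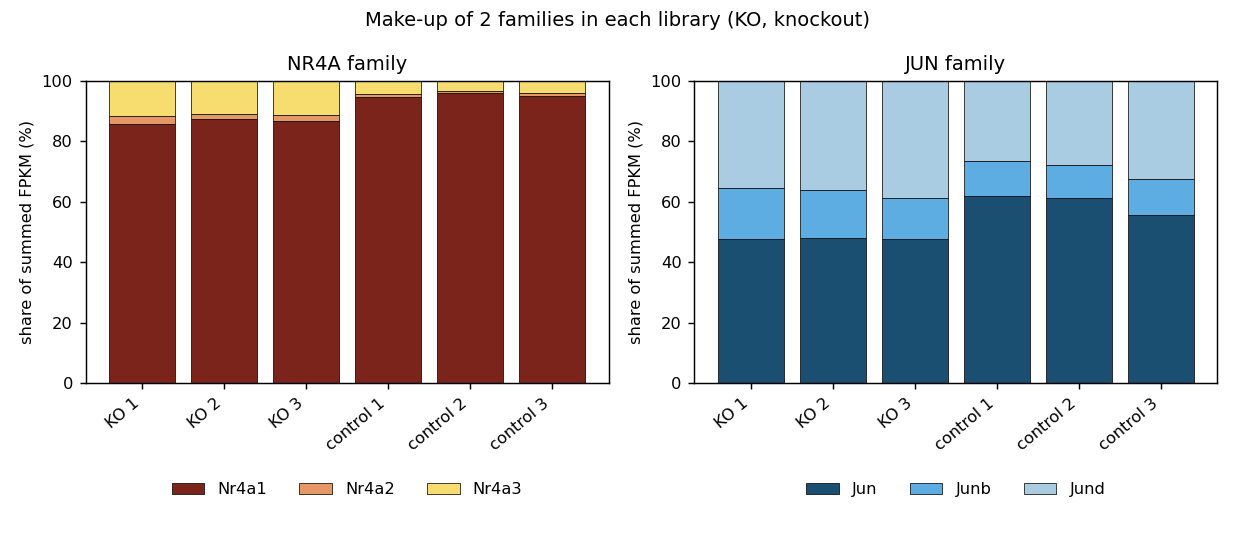
Share of the summed FPKM of the NR4A family (left) and of the JUN family (right) taken by each gene, in percent, with 1 bar per library and knockout libraries (KO) left of controls. Nr4a3 holds at least 10.9% of its family in each knockout library and at most 4.45% in each control, and Jun holds 47.7% to 47.9% of its family in knockouts against 55.7% to 61.8% in controls. The JUN shares depend on the transcript length behind the Jund values.

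Among the JUN genes, Junb and Jund were called and Jun was not, and the difference between their changes was not tested. Jun itself, whose protein FBXW7 is known to mark for breakdown, had 25.6, 27.4 and 31.7 FPKM in the knockout libraries, against 25.2, 29.5 and 25.2 FPKM in the controls. These ranges overlap, and the log2 change of Jun was 0.08 with a 95% interval of -0.17 to 0.33 (adjusted p = 0.59). Its sign was not stable, at -0.14 under size factor scaling. Jun is a gene of 1 exon on chromosome 4 (95049034 to 95052222, minus strand, ENSMUSG00000052684). Junos, an antisense gene, overlaps it from 95051534 to 95167318, and the locus deposited for Jun spans both. The deposited values themselves correspond to a length of 2939 bases, near the 3189 bases of the Jun transcript, but whether counting used the strand is not given in the sources used here.

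Junb and Jund both rose. Junb, a JUN relative that often opposes JUN in cell growth, had 8.98, 9.20 and 8.92 FPKM in knockouts and 4.82, 5.12 and 5.41 FPKM in controls. The knockout libraries stood close together and well above the controls. Its mean was 9.04 ± 0.148 in knockouts and 5.12 ± 0.296 in controls (SD, n = 3 each), 1.77 times as much, with a log2 change of 0.81 (SE 0.11, adjusted p = 0.000937). Jund, the JUN gene with the steadiest expression in resting cells, had 19.0, 20.6 and 25.8 FPKM in knockouts and 10.8, 13.4 and 14.6 FPKM in controls. No knockout value of Jund falls within the control range. The log2 change of Jund was 0.75 (SE 0.15, adjusted p = 0.00646). After the general shift is taken off the changes were 0.60 for Junb and 0.54 for Jund, and both calls held under the alternatives at a threshold of 0.05, with adjusted p up to 0.00617 for Junb and up to 0.0442 for Jund. Both lie on chromosome 8, Junb at 84974484 to 84978718 (minus strand, ENSMUSG00000052837) and Jund at 70698949 to 70700616 (plus strand, ENSMUSG00000071076). Jund has 1 annotated transcript, of 1 exon, and Junb has 2, of which the longest (1809 bases) has 1 exon. The row deposited for Jund starts at 70697739 and its values correspond to a length of 3061 bases, beyond that annotation. An antisense gene, Gm11175, overlaps Jund. Prdx2 on the opposite strand meets the end of annotated Junb, outside the row deposited for Junb (84976909 to 84978748).

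The sum of the 3 JUN genes was 53.6, 57.3 and 66.4 FPKM in the knockout libraries, against 40.8, 48.1 and 45.2 FPKM in the controls. Jun had the highest FPKM of the 3 in every library. The values of Jund correspond to 3061 bases, against an annotated transcript of 1668 bases, so this order and the shares depend on that length. Jund made up 35.5% to 38.8% of the family in knockouts and 26.4% to 32.4% in controls. Junb made up 13.4% to 16.8% in knockouts and 10.7% to 11.97% in controls. Lymphocytes also express Junb and Jund, and all 6 tested B cell and 5 tested T cell markers rose in the same libraries. The part of those cells in either change was not tested.

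Fos and Fosb, the partners of JUN proteins, were not called. Fos had 3.63, 4.90 and 5.64 FPKM in knockouts and 4.69, 4.90 and 5.31 FPKM in controls. Knockout 1 was the lowest of all 6 libraries and knockout 3 the highest, so the knockout group spanned the control group. The log2 change of Fos was -0.09 with a 95% interval of -0.50 to 0.31 (adjusted p = 0.711), and 0.08 without knockout 1. Fosb, whose shorter splice form accumulates with repeated stimulation in the brain, had 0.543, 0.544 and 0.729 FPKM in knockouts and 0.567, 0.388 and 0.417 FPKM in controls. Those groups overlap at control 1. Between 8 and 31 estimated fragments stood behind each value of Fosb, and the log2 change was 0.34 with a 95% interval of -0.37 to 1.05 (adjusted p = 0.42). The 2 FOS genes together came to 4.17 to 6.37 FPKM in knockouts and 5.26 to 5.73 FPKM in controls, far below the JUN genes on the same scale per length.

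Egr1, a zinc finger factor that binds GC-rich sites, rose. It had 3.47, 4.31 and 4.60 FPKM in the knockout libraries, against 2.58, 2.73 and 2.58 FPKM in the controls. The controls lay close together and every knockout library was above them. The log2 change of Egr1 was 0.62 (SE 0.16, adjusted p = 0.0169), or 0.41 after the general shift is taken off. The call of Egr1 ended under size factor scaling (adjusted p = 0.061), under quantile normalization (0.127), and without knockout 2 (0.0584), knockout 3 (0.0616) or control 1 (0.0509). Ier2 had 3.22, 4.10 and 6.24 FPKM in knockouts and 3.10, 3.80 and 2.85 FPKM in controls. Knockout 3 lay well above the other 5 libraries while knockout 1 lay within the control range, and the log2 change of Ier2 was 0.42 with a 95% interval of -0.13 to 0.97 (adjusted p = 0.208).

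**Figure D4:**
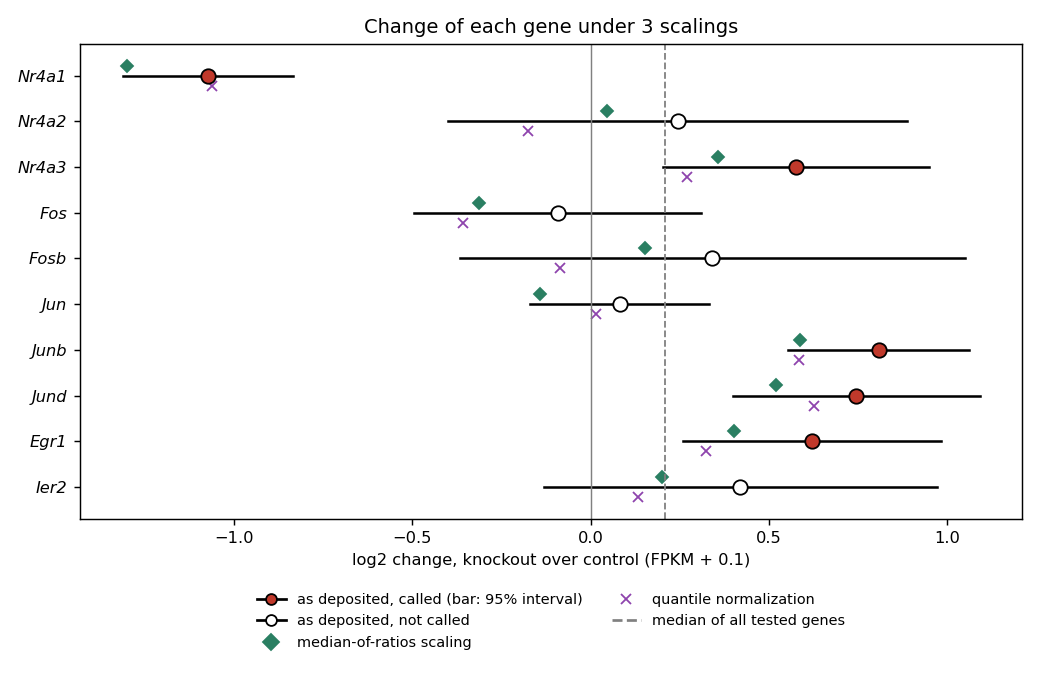
Log2 change of each gene, knockout over control, on FPKM with 0.1 added, with the 95% interval of the limma fit as a bar, filled where called. Diamonds and crosses give the same change under median-of-ratios scaling and quantile normalization, and the dashed line is the median of all tested genes (0.21). Nr4a1, Junb and Jund keep their side of 0 under all 3 scalings and stay called, while Jun changes sign under the first and Nr4a2 and Fosb under the second.

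Within the knockout group the genes shared an order of libraries. Knockout 3 was the highest knockout library for 8 of the 10 genes, against 32.1% of all tested genes. Knockout 1, the shallowest library, was the lowest for 8 of the 10, against 47.0% of all tested genes. Junb and Nr4a2 were the genes whose highest knockout value was in another library. Among the controls no library held more than 4 of the 10 highest values. These are counts over 1 set of libraries, with no test.

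An exact two-sided permutation test of each gene alone gave p = 0.1 for the 5 called genes, the smallest value that 3 libraries against 3 allow. It gave 0.2 for Nr4a2 and Ier2, 0.3 for Fosb, 0.5 for Jun and 0.8 for Fos.

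Relatives of FOS and JUN outside the 10 went both ways. The counts in this and the following lists stand beside 24.5% of all tested genes called higher and 10.1% called lower, and a median log2 change of 0.21. In a list of 14 other AP-1 family genes, 11 were tested, 6 rose and 1 fell, with a median log2 change of 0.45 (4 rose and 1 fell under either other scaling). Maf, a large MAF factor, fell to 17.4, 19.2 and 19.0 FPKM in knockouts, against 40.8, 42.2 and 40.03 FPKM in controls (log2 -1.14, adjusted p = 2.88e-05). Mafk, a small MAF factor without an activation domain, had 18.2, 14.6 and 15.3 FPKM in knockouts and 5.60, 5.41 and 6.001 FPKM in controls (log2 1.48, adjusted p = 5.78e-05). The stress-induced Atf3 had 10.7, 11.4 and 11.7 FPKM in knockouts and 4.62, 4.33 and 4.24 FPKM in controls (log2 1.33, adjusted p = 6.34e-05). None of these 3 genes, named for their small p, has overlapping groups, which also holds for 49.8% of all tested genes. Atf2, a target of stress kinases, averaged 6.78 ± 0.776 FPKM in knockouts and 4.17 ± 0.215 FPKM in controls. It was called as higher (limma adjusted p = 0.00573), but not on the deposited columns headed as counts (0.0563). The other FOS relatives, named after their values were seen, were Fosl1, at 0.629, 1.33 and 1.86 FPKM in knockouts and 0.0852, 0.289 and 0.0571 FPKM in controls, and Fosl2, at 2.61, 2.43 and 3.28 FPKM in knockouts and 1.82, 1.76 and 1.36 FPKM in controls. Both were called as higher (adjusted p = 0.00619 for Fosl1 and 0.0242 for Fosl2), but Fosl2 was not under size factor scaling (0.0649), under quantile normalization (0.143), or without knockout 3 (0.084), control 2 (0.053) or control 3 (0.0645).

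Among the relatives of EGR1 and its corepressors, 4 of 5 were tested and 1 was called. Egr2, known from myelinating Schwann cells and from T cells, had 1.67, 1.99 and 1.46 FPKM in knockouts and 0.420, 0.343 and 0.284 FPKM in controls (log2 2.01, adjusted p = 0.000784). It lay higher in all 3 knockout libraries. Markers of both cell types moved with it, as 4 of 7 tested Schwann cell markers and 5 of 5 tested T cell markers rose, and their part was not tested. Egr3 had 1.09 and 1.39 FPKM in knockouts 2 and 3 and was listed at 0 in knockout 1, against 0.105, 0.306 and 0.211 FPKM in controls. It was not called (adjusted p = 0.474), though it was without knockout 1 (log2 2.17, adjusted p = 0.00465). Nab1 and Nab2, corepressors of EGR factors, averaged 4.03 ± 1.95 and 2.41 ± 0.494 FPKM in knockouts and 1.88 ± 0.666 and 1.70 ± 0.334 FPKM in controls, and neither was called. For Nab1 that changed without knockout 2 (adjusted p = 0.00857). Egr4 was listed at 0 in every library.

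A wider list of 44 other early response genes gave a mixed picture. Of 42 tested, 18 rose and 4 fell, beside 24.5% and 10.1% of all tested genes, with a median log2 change of 0.36 (13 rose and 5 fell under size factor scaling, 14 and 5 under quantile normalization). Sgk1, a kinase induced by serum and glucocorticoids, fell to 41.2 ± 2.68 FPKM in knockouts, against 85.9 ± 6.78 FPKM in controls. Klf10, a factor induced by TGF-beta, fell to 4.18 ± 0.14 FPKM in knockouts, against 9.68 ± 0.802 FPKM in controls. Sik1, a kinase that restrains CREB coactivators, rose to 6.92 ± 0.529 FPKM in knockouts, against 2.15 ± 0.308 FPKM in controls. The antiproliferative gene Btg2 rose to 12.7 ± 1.14 FPKM in knockouts, against 4.95 ± 0.571 FPKM in controls. The 4 that fell were Sgk1, Klf10, Gadd45g and Bhlhe40, of which the last pair is named after its values were seen.

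Factors and kinases that act upstream of these genes were listed separately. In the list of SRF, CREB and MEF2 factors with their partners, 6 of 19 rose and 1 fell (median 0.22, against 0.21 over all tested genes), beside 24.5% higher and 10.1% lower of all tested genes, but 1 rose and 2 fell under size factor scaling and 3 rose and 1 fell under quantile normalization, and 2 to 6 were called on leaving out 1 library. Crem, a CREB relative, averaged 10.7 ± 0.499 FPKM in knockouts and 7.37 ± 0.393 FPKM in controls. Mef2d and Mef2c, muscle transcription factors, averaged 63.5 ± 3.92 and 119 ± 4.05 FPKM in knockouts and 47.5 ± 5.03 and 94.6 ± 9.39 FPKM in controls. Neither was called under size factor scaling (adjusted p = 0.0808 for Mef2d and 0.194 for Mef2c). Mef2c was not called without knockout 2 (0.0561) or without the limma trend (0.0633), nor Mef2d on the columns headed as counts (0.0885). Srf, which encodes serum response factor, averaged 17.6 ± 2.18 FPKM in knockouts and 22.4 ± 0.353 FPKM in controls (adjusted p = 0.033), a call that ended without knockout 1, knockout 2 or any 1 control (0.0632 to 0.0931). Of 12 tested upstream kinases 4 rose and 3 fell, but 1 rose and 5 fell under size factor scaling and 2 rose and 5 fell under quantile normalization. Of the 4 with the smallest p, 3 fell. Map2k2, a kinase that activates ERK, averaged 61.7 ± 2.93 FPKM in knockouts and 79.0 ± 4.35 FPKM in controls (log2 -0.35, adjusted p = 0.00736). Mapk14, the stress kinase p38 alpha, averaged 28.9 ± 1.18 FPKM in knockouts and 38.3 ± 3.10 FPKM in controls (log2 -0.40, adjusted p = 0.00912). Rps6ka5, a kinase that phosphorylates CREB and histone H3, averaged 0.727 ± 0.0353 FPKM in knockouts and 1.48 ± 0.0993 FPKM in controls (log2 -0.94, adjusted p = 0.011, and 0.0512 without control 2). Map2k7, which activates the JUN kinases, was the one that rose, at 42.5 ± 4.33 FPKM in knockouts and 30.3 ± 2.57 FPKM in controls (log2 0.48, adjusted p = 0.00798).

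In the list of 12 genes for the breakdown of JUN, 5 rose and 3 fell, Fbxw7 among those that fell, beside 24.5% higher and 10.1% lower over all tested genes. Under size factor scaling 3 rose and 5 fell, and under quantile normalization 5 and 4. Ddb1, an adaptor of CUL4 ligases, averaged 60.5 ± 0.941 FPKM in knockouts and 31.1 ± 3.72 FPKM in controls (log2 0.97, adjusted p = 0.000182). Usp28, a deubiquitinase that counters FBXW7, averaged 17.2 ± 0.814 FPKM in knockouts and 10.3 ± 1.26 FPKM in controls (log2 0.74, adjusted p = 0.0017). Skp1a, which joins FBXW7 to its ligase, averaged 184 ± 9.05 FPKM in knockouts and 136 ± 7.56 FPKM in controls, though it was not called under size factor scaling (adjusted p = 0.0518).

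Among fuel genes linked to NR4A receptors in muscle, most fell. Of 11 tested, 9 fell and 2 rose, with a median log2 change of -0.97 (9 fell and none rose under size factor scaling, 9 and 2 under quantile normalization). The list was chosen with the fall of several of its genes known, so its direction is not independent evidence. Muscle fibre markers moved with it, 6 of 10 being lower and 4 higher with a median log2 change of -0.58 and a summed level of 31169 to 32880 FPKM in knockouts against 66821 to 68322 FPKM in controls, and their part was not tested. Phkg1 of phosphorylase kinase had 68.1 ± 4.78 FPKM in knockouts and 206 ± 7.01 FPKM in controls, and Pygm, muscle glycogen phosphorylase, 1650 ± 101 FPKM in knockouts and 4421 ± 352 FPKM in controls. Fbp2 and Slc2a4 were the other members with the smallest p. Those called as higher, picked for naming with their values in view, were the fatty acid transporter gene Cd36 and Pdk4, a kinase that shuts down pyruvate dehydrogenase.

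**Figure D5:**
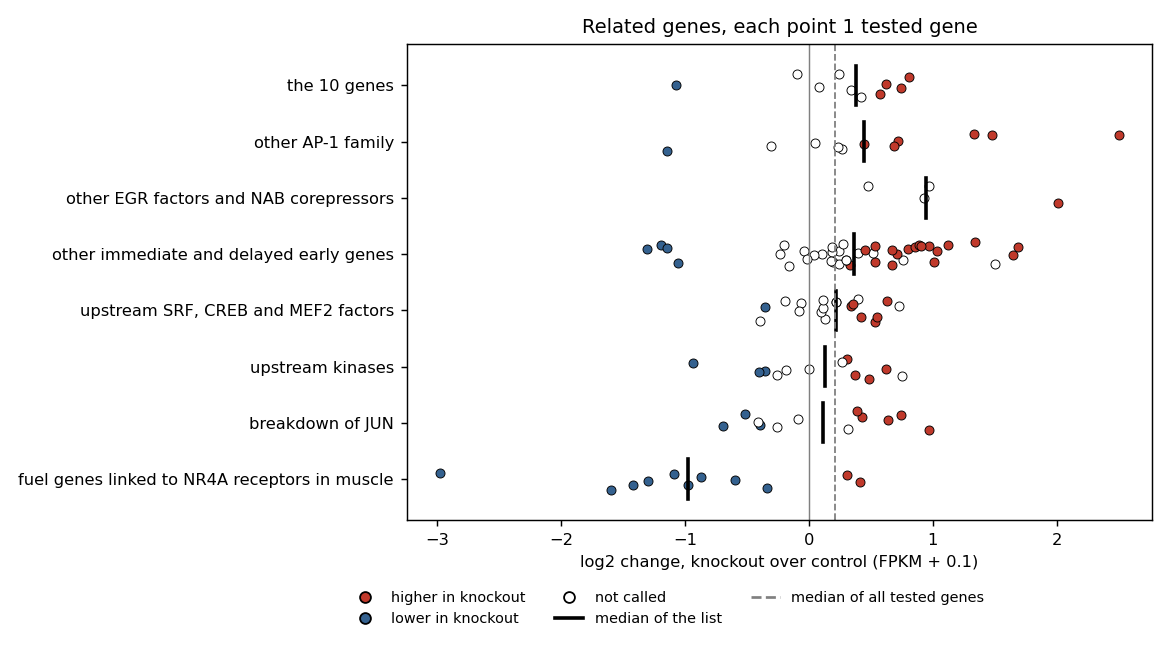
Log2 change, knockout over control, of each tested gene in the lists of related genes, 1 point per gene, red where called higher, blue where called lower and open where not called. Black bars are list medians and the dashed line is the median of all tested genes (0.21). Most lists hold genes on both sides, and the fuel genes linked to NR4A receptors have a median of -0.97.

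Genes with the most similar course over the 6 libraries were sought among 11101 tested genes by the root mean square difference of centred log2 values. For Nr4a1 they were Acvr1b, a receptor of the activin family (difference 0.054), and Gpd1, glycerol phosphate dehydrogenase (0.064). For Junb the nearest was Acadl, of fatty acid oxidation. Jund was nearest to Arf4 and Ier3, Egr1 to Pigt and Rsph3b, and Nr4a3 to Mfsd6 and Fbxl20. Within the 10 genes Nr4a3 lay nearest to Fosb and Egr1 (difference 0.13 for each pair). This is a measure of likeness in 2 groups of 3 libraries, to which the difference between the groups contributes.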

How the data were processed

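Per the submitters' processing notes, the authors used cutadapt 1.9.3 and HISAT2 2.0.4 on build mm10, with Cufflinks and Cuffdiff for quantification. The deposited table holds FPKM per library for protein-coding genes, from rRNA-depleted, stranded libraries (per the labels' protocols), and 1 of its lines was emptied for this work. Its columns headed as counts are a scaled signal, as the values show: estimated fragments times 1 constant per library, with 95.0% to 95.7% of low values whole multiples of it within 0.1. The deposited signal was divided by that constant to estimate fragments. No count test was run.

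Rows sharing a symbol were summed. The 11659 genes averaging 0.5 FPKM or more were compared as log2(FPKM + 0.1) in limma 3.58.1 (R 4.3.3, trended empirical Bayes), with Benjamini-Hochberg adjustment across all of them and a threshold of 0.05. Fold changes on this scale understate those of low genes. Median squared differences between replicates were 1.77 to 5.31 times those from sampling alone, which does not show whether any 2 come from 1 sample. Labels do not state separate animals, so p-values reflect only spread among these samples, which may be technical. Alternatives covered pseudocount, filter, scaling, limma options, replicate block, threshold, value column and leaving out each library. Positions are from GENCODE M21, promoters from RefSeq.

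The 10 genes and the lists were chosen with earlier results of these data known. Named are the 10 genes, Fbxw7, up to 4 genes with the smallest p in each related list, markers at 0 or most abundant, and the 2 genes most like each called gene. A gene picked by this rule is not reported here. Other names were picked with their values in view, as stated there.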

Additional observations from a re-analysis of the deposited data

How the results depend on the processing

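Across 17 alternative settings the calls of Nr4a1, Junb and Jund kept their direction and their side of the threshold, and Fbxw7 did so with a log2 change between -0.96 and -0.59. The number of the 10 genes called was 5 as reported and 3 under size factor scaling, quantile normalization and the threshold of 0.01, and 3 to 5 on leaving out 1 library. Of all tested genes 4037 were called (2168 at the threshold of 0.01), of which 2860 were higher and 1177 lower as deposited, 1628 higher and 2140 lower with size factors (median of ratios), and 1715 higher and 1696 lower after quantile normalization. The median of all tested genes was 0.21 as deposited and -0.01 and -0.00 under those 2 scalings. Nr4a3 was not called at log2 0.36 (size factor scaling), 0.27 (quantile normalization) and 0.58 (replicate block and threshold of 0.01), and its values on leaving out 1 library ran between 0.49 and 0.67. Egr1 was not called at 0.40 and 0.33 under the 2 scalings and 0.62 at the threshold of 0.01, and ran between 0.54 and 0.74 on leaving out 1 library. Signs turned for Jun (-0.14 under size factor scaling, -0.0038 without knockout 3, up to 0.16), for Nr4a2 (-0.17) and Fosb (-0.087) under quantile normalization, and for Fos (0.081 without knockout 1, down to -0.23), none of them called in any setting. The cause of these changes was not tested.

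For the lists of related genes, counts moved by more than 1.5 times as follows. SRF, CREB and MEF2 factors had 7 called genes as reported, 3 under size factor scaling, 4 under quantile normalization, without the limma trend and with the replicate block, 1 at the threshold of 0.01, and 2 to 6 on leaving out 1 library. Upstream kinases had 7, and 3 at the threshold of 0.01 and 4 to 7 on leaving out 1 library. EGR relatives had 1, and 0 when a mean of 2 FPKM was required, where Egr2 is no longer tested, 2 with the replicate block, and 1 to 2 on leaving out 1 library. NR4A-linked fuel genes had 11, and 7 without a filter and at the threshold of 0.01, and 7 to 10 on leaving out 1 library.

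With the replicate number as a block, 3828 genes were called in all and 4 of the 10, the call of Nr4a3 ending at adjusted p = 0.0501. Deviations of same-numbered libraries correlated at -0.07, 0.20 and 0.18 for numbers 1, 2 and 3, and not every library correlated best with its own number, so the numbers are not taken to pair the samples. Depth limits Fosb and Nr4a2 most, with 8 to 31 estimated fragments a library.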
